A study of Mus musculus with 12 samples.

Results

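This account follows 30 target genes of the tumour suppressor p53 through the livers of mice of 2 strains on 2 diets. Cdkn1a and Mdm2, the targets most often measured, were set aside, and the 30 were taken by name from a list of known p53 targets, grouped by role. They are 13 genes of apoptosis, 6 of growth arrest, 3 of DNA repair and 8 of metabolism and stress. All 30 occur among the 24421 genes of the count table and all were among the 13880 genes with enough counts to be tested. On the LiK libraries alone, 28 of the 30 would have had enough counts, and Psrc1 and Ak1 passed only through LiKM libraries.

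RNA was sequenced from liver tissue without tumour of male mice killed at 4 months. The groups, named here as LiK normal, LiK ACR, LiKM normal and LiKM ACR mice, were LiK on a normal diet, LiK on a diet with 0.06% ACR, LiKM on a normal diet and LiKM on the ACR diet, with 3 mice each and 12 libraries in all, and the ACR diet began at 5 weeks of age. ACR, an acyclic retinoid, is a vitamin A analogue tested for the prevention of liver cancer. By knowledge of the study that goes beyond its labels, LiKM mice are meant to lack Mdm2 in hepatocytes through a Cre recombinase driven by the albumin promoter, and LiK mice are not. Whether other liver cells, such as bile duct or progenitor cells, keep Mdm2 is not stated. A wild-type mouse is not among the groups.

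The p53 protein is a transcription factor that is held at a low level by Mdm2, a ubiquitin ligase that marks it for degradation, and Mdm2 is itself a p53 target, which closes a feedback loop. Stress, such as DNA damage, frees p53 from Mdm2, and p53 then binds pairs of a decamer motif near its targets and raises their transcription. Some targets kill the cell through the mitochondrion or through death receptors, others halt division, repair DNA, restrain growth signalling or alter metabolism. In the liver, where hepatocytes seldom divide, p53 targets are known to respond to toxic and metabolic stress.

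The p53 decamer is shown first because it is the sequence through which p53 is known to reach such genes. In the RefSeq promoter sequences of the build GRCm38.p6, which run from 250 bases before to 50 bases after a transcription start, 24 of the 30 genes had an entry. Of these 24 genes, 9 (37.5%) held at least 1 decamer on either strand, against 876 of 10462 tested genes with an entry (8.37%). A pair of decamers with at most 13 bases between them was found in 0 of the 24 genes and in 5 of the 10462. Bax, Aen, Ei24, Ccng1, Ckap2, Polk, Sesn1, Ddit4l and Abhd4 held a decamer. In Aen, Ei24 and Abhd4 the printed stretch would hold exon bases, and the other 6 are printed 5′ to 3′ on the gene's strand, with the decamer in capitals. They lie at chr7:45467075-45467114 (minus strand) for Bax, chr11:40755447-40755486 (minus) for Ccng1, chr8:22185998-22186037 (minus) for Ckap2, chr3:137623567-137623606 (plus) for Ddit4l, chr13:96519394-96519433 (minus) for Polk and chr10:41887251-41887290 (plus) for Sesn1.
Bax: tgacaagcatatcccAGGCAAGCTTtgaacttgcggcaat
Ccng1: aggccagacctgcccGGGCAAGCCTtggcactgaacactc
Ckap2: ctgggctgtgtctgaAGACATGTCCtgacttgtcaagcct
Ddit4l: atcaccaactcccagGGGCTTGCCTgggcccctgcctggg
Polk: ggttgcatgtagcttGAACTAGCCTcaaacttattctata
Sesn1: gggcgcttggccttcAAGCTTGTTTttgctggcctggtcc

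The decamers began 201 bases before the start in Bax, 185 in Ccng1, 203 in Ckap2, 90 in Ddit4l, 231 in Polk and 173 in Sesn1. The start used lies inside the gene's annotated span for Sesn1, Polk, Ddit4l and Ccng1, and for Sesn1 and Polk it is 1 of 2 starts in the table. The match describes letters only. Of the 9 genes with a decamer in the window, 5 rose in LiKM on at least 1 diet, as did 8 of the 15 without one and 3 of the 6 with no entry, where 15% of all tested genes rose on at least 1 diet.

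Library totals ran from 10124813 to 18647156 counts. Levels are given as CPM, the usual unit of counts relative to the library total, here scaled by edgeR's TMM factors (0.8304 to 1.243), and group levels are the mean ± SD over 3 mice. Fold changes are on the log2 scale from edgeR's quasi-likelihood fit of all 12 libraries, with their standard error (SE) and p-values adjusted over all 13880 genes, and a gene "rose" or "fell" where that p was under 0.05. In bulk liver, a larger share of cells with a high level and more RNA per cell cannot be told apart. Mdm2 stood at 24.1, 23.4 and 25.8 CPM in LiK normal mice, 21.6, 22.4 and 23.5 in LiK ACR mice, 35.0, 30.4 and 29.0 in LiKM normal mice and 31.8, 47.6 and 67.2 in LiKM ACR mice. All 6 LiKM libraries thus lay above all 6 LiK libraries. These counts cover the whole gene and the part meant to be deleted is not stated, so they do not check the strain labels. Trp53, which encodes p53, stood at 16.6 ± 2.66 CPM in LiK normal and 16.9 ± 2.36 in LiK ACR mice, and at 24.2 ± 5.06 in LiKM normal and 24.1 ± 2.34 in LiKM ACR mice (adjusted p = 0.0425 on the normal diet, a call lost in 12 of 24 alternative settings, and 0.077 on ACR). Cdkn1a, the p21 inhibitor of cell cycle kinases, rose 7.62-fold on the normal diet (adjusted p = 0.0123) and 38.5-fold on ACR (adjusted p = 0.00533). Hepatocyte markers, a list of 15 genes, summed to between 96588 and 178600 CPM per library, and none was at 0.

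The libraries also differed in ways that are no part of the design. The mouse identifiers in the labels begin with KM or MP, with no statement of what that means, and MP stands for LiK normal 2 and 3 and LiKM ACR 3. Clock genes, whose levels follow the time of day, differed between mice of 1 group, and the labels do not give the hour of collection. Npas2, a clock activator, stood at 0.0622, 10.4 and 18.2 CPM in LiKM ACR mice, and Per2, a clock repressor, at 147, 99.7 and 34.9 CPM in LiKM normal mice. Dbp, a clock output gene, stood at 136 to 139 CPM in the LiK ACR mice and 25.6 to 35.9 in the LiK normal mice. LiKM normal 3, LiKM ACR 2 and LiKM ACR 3 stood apart from the other LiKM mice in such genes, and results without these 3 libraries are given beside the counts.

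In LiKM livers many of the p53 targets stood above their level in LiK livers, and none fell. On the normal diet 12 of the 30 rose, which is 40%, where 13.2% of all tested genes rose and 8.61% fell. On ACR 15 of the 30 rose, which is 50%, where 5.55% of all tested genes rose and 4.24% fell (9.79% in either direction). Psrc1 and Ak1, which were tested only through the LiKM libraries in which they are high, are among these counts. Of the 28 genes with enough counts in LiK alone, 10 rose on the normal diet and 13 on ACR, where 10.3% and 4.55% of the 12800 such genes rose, and the median log2 differences of the 28 were 0.65 and 0.90. The median log2 difference of the 30 was 0.75 on the normal diet and 0.97 on ACR, against 0.02 over all genes on both diets. Values above 0 were seen for 24 of the 30 genes on the normal diet and 27 on ACR. Scaled by library size alone, 19 and 16 of the 30 rose, while the median of all genes moved to 0.405 and 0.137, and the share of higher genes among all calls moved from 60.6% to 97.6% on the normal diet and from 56.7% to 77.9% on ACR. With the identifier prefix as a term of the fit, 10 of the 30 rose on the normal diet and 13 on ACR. Without the 3 LiKM libraries that stood apart in clock genes, 14 rose on normal food and 4 on ACR, where a single LiKM mouse then remained. The genes were chosen with earlier results of the same data known, and their counts are a description.

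**Figure D1:**
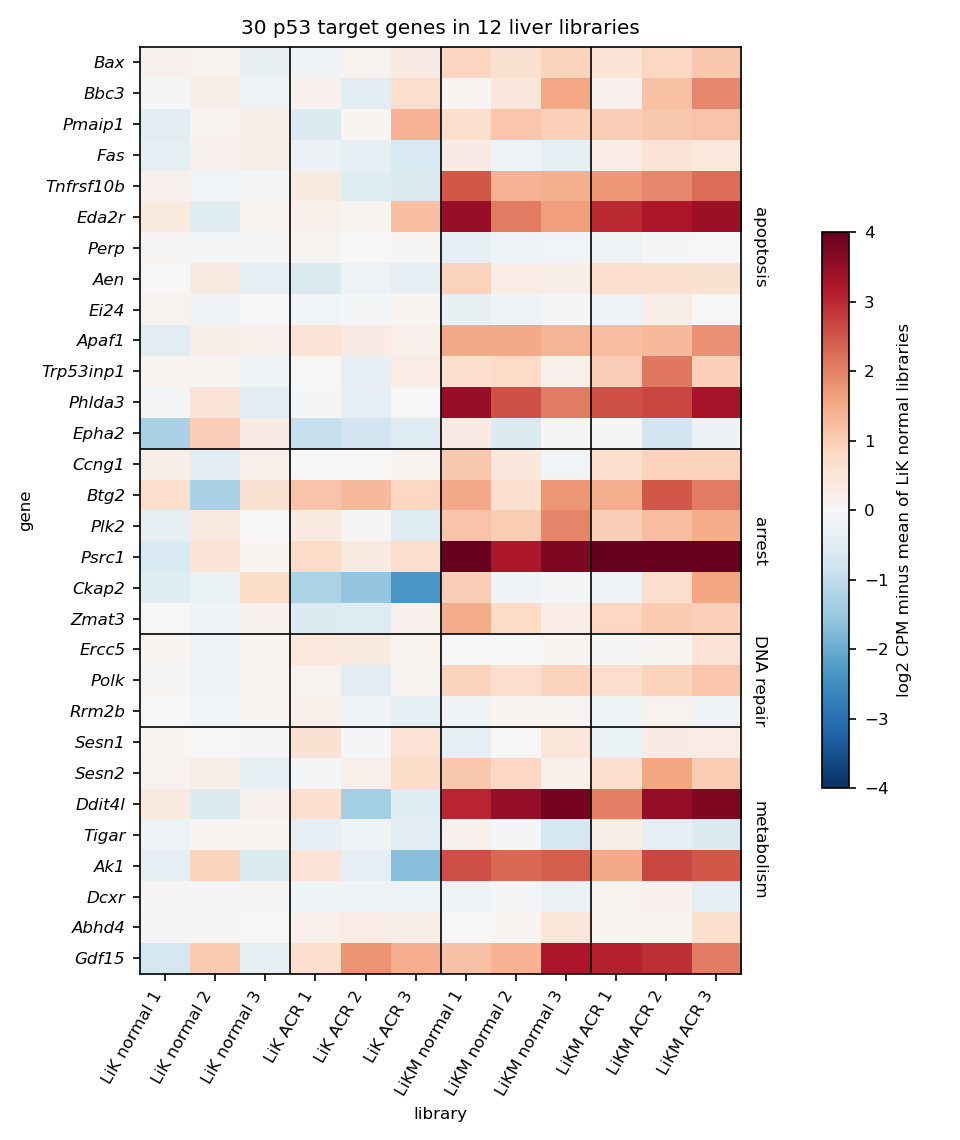
Log2 CPM of each of the 30 p53 targets (rows, by role) in each of the 12 libraries (columns), minus the gene's mean over the 3 LiK normal libraries. Red is higher and blue is lower, and the colours stop at a difference of 4. Psrc1, Phlda3, Eda2r, Ddit4l, Tnfrsf10b, Ak1 and Apaf1 are red in all 6 LiKM libraries, while Perp, Ei24, Ercc5, Rrm2b and Dcxr stay pale throughout.

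A shared set of targets rose on both diets. Bax, Tnfrsf10b, Eda2r, Apaf1, Phlda3, Plk2, Psrc1, Zmat3, Polk, Ddit4l and Ak1, 11 genes in all, passed the threshold in both comparisons, where 3.8% of all tested genes rose in both. Without Psrc1 and Ak1 they were 9 of 28, where 2.93% of the genes with enough counts in LiK did. The same 11 were the genes for which all 6 LiKM libraries lay above all 6 LiK libraries, a pattern held by 7.08% of all tested genes, and 0 of the 30 had all LiKM below all LiK libraries, as 6.18% of all genes did. Within a diet, LiKM libraries lay above LiK libraries without overlap for 14 of the 30 on the normal diet (20.7% of all genes) and for 18 on ACR (17.2%), and below for 1 (19.4%) and 0 (16%). Fas, Aen, Trp53inp1 and Ckap2 rose on ACR, and Gdf15 rose on the normal diet. The remaining 14 of the 30 did not pass the threshold on either diet. All 4 roles had members that rose and members that did not.

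**Figure D2:**
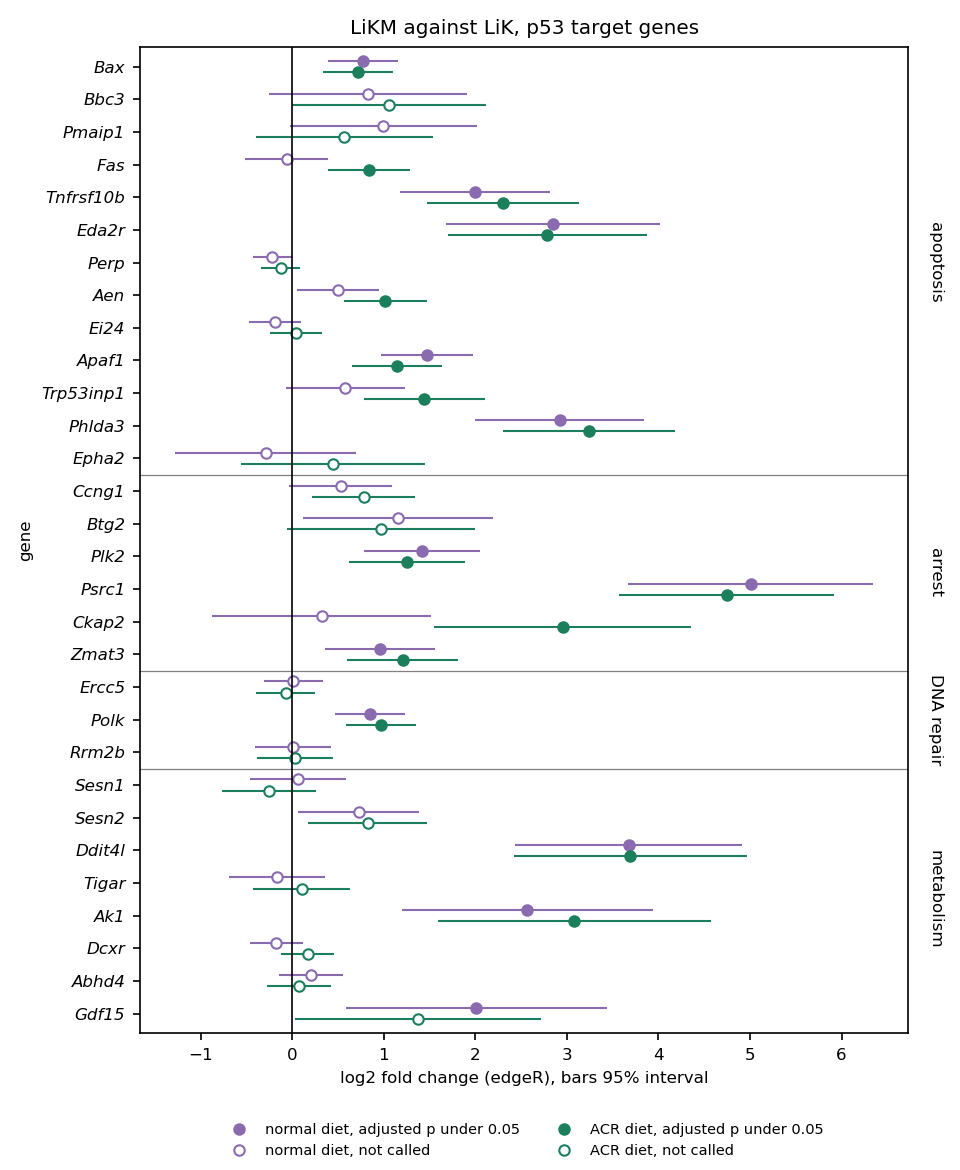
Log2 fold change of LiKM against LiK for each of the 30 genes (rows, by role) on the normal diet (purple) and on ACR (green), with the 95% interval of the edgeR fit as bars. Filled points passed an adjusted p of 0.05, and the 11 genes with both points filled include Psrc1, at 5.01 and 4.75, and Ddit4l, at 3.67 and 3.69.

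Among the genes of apoptosis, 5 of 13 rose on the normal diet (median log2 difference 0.78) and 8 of 13 on ACR (median 1.02). The shares over all tested genes were 13.2% and 5.55%. Of the receptors of the TNF receptor family, Tnfrsf10b and Eda2r rose on both diets and Fas on ACR. Tnfrsf10b, the mouse receptor for the death ligand TRAIL, stood at 1.13, 0.905 and 0.921 CPM in LiK normal mice and 1.30, 0.666 and 0.617 in LiK ACR mice. LiKM normal mice stood at 6.12, 2.82 and 2.86 CPM and LiKM ACR mice at 3.61, 4.07 and 5.06. The strains did not overlap, and 1 mouse, LiKM normal 1, stood well above the other LiKM mice on its diet. The log2 difference was 2.00 (SE 0.38, adjusted p = 0.00433) on the normal diet and 2.30 (SE 0.38, adjusted p = 0.00691) on ACR. Its counts were not whole in any of the 12 libraries, as arises where reads are shared with other genes, so its level is uncertain.

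Eda2r, a receptor of the same family for ectodysplasin A2, was low in LiK, at 0.845, 0.396 and 0.67 CPM in mice on normal food and 0.721, 0.666 and 1.58 in mice on ACR. LiKM normal mice had 8.22, 3.03 and 2.23 CPM and LiKM ACR mice 5.78, 6.98 and 7.87. Every LiKM mouse was above every LiK mouse, and LiKM normal 1 was again the highest on its diet. It rose 7.19-fold on the normal diet (log2 2.85, SE 0.53, adjusted p = 0.00442) and 6.91-fold on ACR (log2 2.79, SE 0.50, adjusted p = 0.00904). Fas, the receptor for Fas ligand, stood at 8.52, 12.6 and 13.1 CPM in LiK and 14.1, 9.93 and 8.59 in LiKM on the normal diet, where the mice overlapped and the log2 difference was -0.06 (95% interval -0.51 to 0.39). On ACR it stood at 9.52, 8.52 and 7.27 CPM in LiK and 13.8, 16.3 and 15.2 in LiKM, with no overlap and a log2 difference of 0.84 (SE 0.21, adjusted p = 0.0283).

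On the mitochondrial route, Bax and Apaf1 rose on both diets. Bax, which forms pores in the mitochondrial outer membrane, stood at 13.7, 13.6 and 9.97 CPM in LiK normal mice and 11.1, 13.5 and 15.6 in LiK ACR mice. In LiKM normal mice it stood at 22.3, 18.9 and 22.9 CPM and in LiKM ACR mice at 18.2, 22.0 and 25.9. All LiKM mice were above all LiK mice, by a narrow margin on ACR, and the difference was 1.72-fold on the normal diet (adjusted p = 0.0101) and 1.64-fold on ACR (adjusted p = 0.0268). In an alternative fit with the replicate numbers as a block within LiKM, LiKM is set at the fitted level of replicate 1. The log2 value on ACR was then 0.61, which does not compare whole groups. Bax shares 192 exon bases with a predicted gene on the same strand. Apaf1, the scaffold of the apoptosome that activates caspases once cytochrome c has left the mitochondrion, stood at 2.92 ± 0.765 CPM in LiK normal and 3.71 ± 0.492 in LiK ACR mice, and at 8.12 ± 0.488 in LiKM normal and 8.2 ± 1.94 in LiKM ACR mice. Its lowest LiKM mouse was at 6.90 CPM and its highest LiK mouse at 4.25, and the log2 difference was 1.47 (SE 0.23, adjusted p = 0.00162) on the normal diet and 1.14 (SE 0.23, adjusted p = 0.0123) on ACR.

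The BH3-only proteins, which unleash Bax by binding its inhibitors, did not pass the test. Bbc3, which encodes PUMA, stood at 4.08, 5.28 and 11.6 CPM in LiKM normal mice and 4.35, 8.81 and 14.9 in LiKM ACR mice. In LiK it stood between 2.80 and 6.38 CPM over both diets, so that the LiKM mice ran from within the LiK range to above it. The log2 difference was 0.82 (95% interval -0.25 to 1.90, adjusted p = 0.254) on the normal diet and 1.06 (95% interval 0.0018 to 2.12, adjusted p = 0.181) on ACR. Pmaip1, which encodes NOXA, stood at 0.825 ± 0.232 CPM in LiK and 1.65 ± 0.262 in LiKM on the normal diet, with no overlap (adjusted p = 0.149). On ACR the mouse LiK ACR 3, at 2.33 CPM, was above all LiKM mice, and the adjusted p was 0.436. Bbc3 counts were not whole in 10 of 12 libraries.

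Of the other genes of apoptosis, Phlda3 moved most. Phlda3, a PH domain protein that keeps the survival kinase Akt from the membrane, stood at 0.704, 1.13 and 0.502 CPM in LiK normal mice and 0.721, 0.533 and 0.755 in LiK ACR mice. The level was 9.72, 5.00 and 3.58 CPM in LiKM normal mice and 5.10, 5.49 and 8.54 in LiKM ACR mice. The lowest LiKM mouse was thus over 3 times the highest LiK mouse. It rose 7.58-fold on the normal diet (log2 2.92, SE 0.42, adjusted p = 0.00109) and 9.45-fold on ACR (log2 3.24, SE 0.43, adjusted p = 0.00303).

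Aen, a nuclease that takes part in the breakdown of DNA during apoptosis, stood at 11.5, 14.8 and 13.3 CPM in LiK and at 27.2, 26.8 and 26.2 in LiKM on ACR, 2.03-fold higher (adjusted p = 0.0137). In LiKM normal mice Aen stood at 32.6, 20.7 and 20.4 CPM and overlapped LiK normal mice, whose highest was at 21.8 (log2 difference 0.50, adjusted p = 0.103). Trp53inp1, a stress protein that promotes p53 activity and autophagy, stood at 134, 297 and 131 CPM in LiKM on ACR against 68.1, 54.7 and 84.0 in LiK. LiKM ACR 2 was far above its group, and the log2 difference was 1.44 (SE 0.30, adjusted p = 0.0169). Without ACR, Trp53inp1 stood at 68.3 ± 5.72 CPM in LiK and 102 ± 20.8 in LiKM (log2 0.58, adjusted p = 0.184).

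Perp, Ei24 and Epha2 did not pass the test on either diet. Perp, a membrane protein of desmosomes, stood at 86.6 ± 4.75 CPM in LiK and 74.4 ± 7.11 in LiKM on the normal diet. It was the only one of the 30 whose LiKM mice all lay below the LiK mice on a diet, with a log2 difference of -0.22 (adjusted p = 0.132), which became 0.18 with library size alone. Ei24, a protein of the endoplasmic reticulum with roles in autophagy whose exons overlap an antisense gene, had log2 differences of -0.19 (95% interval -0.47 to 0.10) and 0.04 (95% interval -0.24 to 0.32) for the normal diet and for ACR. Epha2, a receptor tyrosine kinase for ephrins, varied more between LiK mice on the normal diet, at 14.7, 71.5 and 45.6 CPM, than between the strains. On the normal diet the values below 0 of Perp, Ei24, Epha2, Fas, Tigar and Dcxr turned above 0 when libraries were scaled by size alone, as did that of Ercc5 on ACR.

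**Figure D3:**
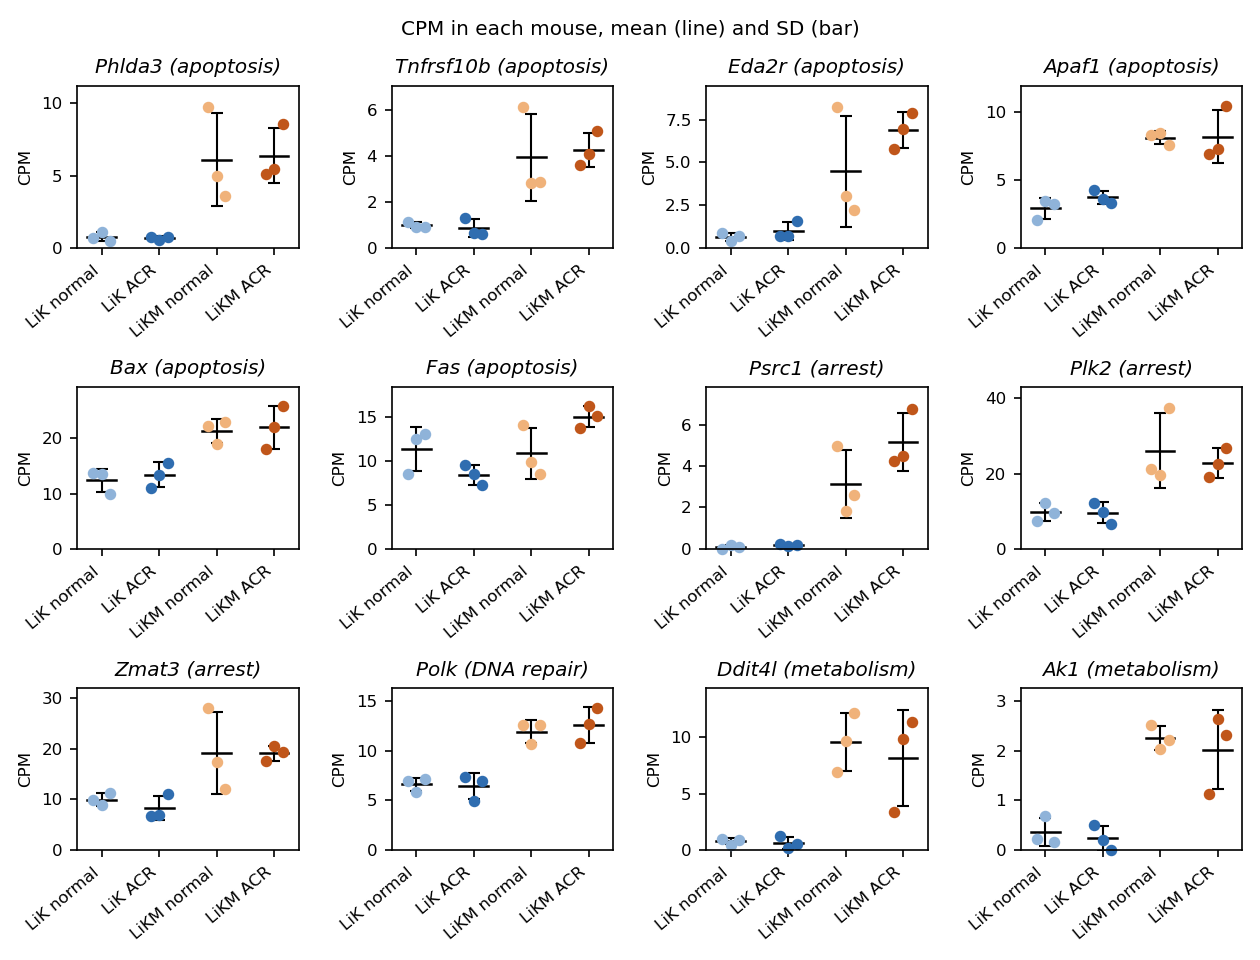
CPM of 12 of the 30 genes in each mouse (points), by group, with the group mean (line) and SD (bar), each panel on its own linear axis from 0. In all panels except that of Fas the 6 LiKM mice lie above the 6 LiK mice, and in that of Fas they do so on ACR.

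Among the genes of growth arrest, 3 of 6 rose on the normal diet (median log2 difference 1.06) and 4 of 6 on ACR (median 1.23), Psrc1 included. The shares over all tested genes were 13.2% and 5.55%. Psrc1, a microtubule-associated protein of the spindle, was nearly without counts in LiK, with 0, 3 and 1 counts in mice on normal food and 3, 2 and 3 in those on ACR. Values were 4.98, 1.83 and 2.62 CPM in LiKM normal mice and 4.23, 4.47 and 6.77 in LiKM ACR mice. No LiK mouse exceeded 0.216 CPM. The log2 difference was 5.01 (95% interval 3.66 to 6.35) on the normal diet and 4.75 (95% interval 3.57 to 5.92) on ACR. It rests on those few LiK counts and is a description, because Psrc1 passed the filter on low counts only through its LiKM libraries.

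Plk2, a polo-like kinase of centriole duplication, stood at 7.47, 12.2 and 9.55 CPM in LiK normal mice and 12.2, 9.92 and 6.59 in LiK ACR mice. LiKM normal mice reached 21.2, 19.6 and 37.5 CPM and LiKM ACR mice 19, 22.4 and 26.9. All LiKM mice were above all LiK mice, with LiKM normal 3 the highest. Plk2 rose 2.67-fold on the normal diet (adjusted p = 0.00691) and 2.38-fold on ACR (adjusted p = 0.0235). Zmat3, an RNA-binding zinc finger protein, stood at 28.0, 17.4 and 12.1 CPM in LiKM normal mice and 17.5, 20.5 and 19.3 in LiKM ACR mice, while LiK mice ran from 6.78 to 11.2. The gap between the highest LiK mouse and LiKM normal 3 was small. Zmat3 rose 1.94-fold on the normal diet (adjusted p = 0.0284) and 2.31-fold on ACR (adjusted p = 0.0222), and its counts were not whole in 8 of 12 libraries.

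Ckap2, a protein of the mitotic spindle, rose on ACR and not on the normal diet. It stood at 0.845, 1.02 and 2.18 CPM in LiK and 2.58, 1.13 and 1.19 in LiKM on the normal diet, where the mice overlapped. On ACR it stood at 0.433, 0.333 and 0.137 CPM in LiK and 1.06, 2.10 and 3.96 in LiKM, 7.75-fold higher (log2 2.95, SE 0.64, adjusted p = 0.0179). The LiK values on ACR rest on 6, 5 and 2 counts. Ckap2 is also a gene of dividing cells. The list of 12 proliferation markers, led by Mki67, Top2a and Ccna2, summed to 14.1 to 23.9 CPM in LiK on ACR and 23.3 to 82.2 in LiKM on ACR, and the part of these markers in the Ckap2 result was not tested.

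Ccng1, which encodes cyclin G1, and Btg2, an antiproliferative cofactor, did not pass the threshold. Ccng1 stood at 36.6 ± 8.63 CPM in LiK and 52.8 ± 21.6 in LiKM on the normal diet (log2 0.53, adjusted p = 0.160), and at 37.3 ± 1.82 and 64.2 ± 7.48 on ACR (log2 0.78, adjusted p = 0.0739). On ACR all 3 LiKM mice were above all 3 LiK mice. Btg2 stood at 37.5, 9.28 and 35.4 CPM in LiK and 66.6, 36.5 and 79.5 in LiKM on the normal diet, a difference of 2.23-fold with overlap (adjusted p = 0.105). On ACR it stood at 49.7 ± 7.67 and 97.5 ± 33.6 CPM, with no overlap (adjusted p = 0.203).

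Of the genes of DNA repair, 1 of 3 rose, on both diets, where 3.8% of all tested genes rose on both. Polk, the translesion polymerase that copies past bulky damage, stood at 6.90, 5.88 and 7.12 CPM in LiK normal mice and 7.36, 4.93 and 7 in LiK ACR mice. The LiKM normal mice were at 12.6, 10.6 and 12.6 CPM and LiKM ACR mice at 10.8, 12.7 and 14.3. The strains were well apart and mice within a group were close. Polk rose 1.80-fold on the normal diet (log2 0.85, SE 0.18, adjusted p = 0.00692) and 1.96-fold on ACR (log2 0.97, SE 0.18, adjusted p = 0.00946).

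The other DNA repair genes lay close to no difference. Ercc5, the XPG nuclease of nucleotide excision repair, stood at 18.0 ± 1.43 CPM in LiK and 18.2 ± 0.597 in LiKM on the normal diet, a log2 difference of 0.01 (95% interval -0.31 to 0.34). On ACR its log2 difference was -0.07 (95% interval -0.39 to 0.25). Rrm2b, a ribonucleotide reductase subunit whose exons overlap an antisense gene, stood at 4.74 ± 0.308 CPM in LiK and 4.78 ± 0.456 in LiKM on the normal diet. Its log2 difference was 0.01 (95% interval -0.40 to 0.43) on that diet and 0.03 (95% interval -0.38 to 0.44) on ACR.

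Among the genes of metabolism and stress, 3 of 8 rose on the normal diet (median log2 difference 0.47) and 2 of 8 on ACR (median 0.50), Ak1 included. The shares over all tested genes were 13.2% and 5.55%. Of the inhibitors of mTORC1, the growth-promoting kinase complex, Ddit4l rose on both diets. Ddit4l, which encodes REDD2, stood at 0.986, 0.453 and 0.837 CPM in LiK normal mice and 1.23, 0.200 and 0.480 in LiK ACR mice. LiKM normal mice stood at 6.96, 9.65 and 12.2 CPM and LiKM ACR mice at 3.36, 9.83 and 11.4. Every LiKM mouse was above every LiK mouse, with LiKM ACR 1 the lowest of them. Ddit4l rose 12.8-fold on the normal diet (log2 3.67, SE 0.57, adjusted p = 0.00164) and 12.9-fold on ACR (log2 3.69, SE 0.58, adjusted p = 0.00606).

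The sestrins, which restrain the same complex when amino acids are short, did not pass the test. Sesn1 stood at 11 ± 0.61 CPM in LiK and 11.5 ± 3.45 in LiKM on the normal diet, a log2 difference of 0.06 (95% interval -0.46 to 0.59), and its log2 difference on ACR was -0.25 (95% interval -0.77 to 0.27). Sesn2 stood at 5.73 ± 1.30 CPM in LiK and 9.53 ± 2.83 in LiKM on the normal diet (log2 0.73, adjusted p = 0.106), and at 7.09 ± 2.09 and 12.6 ± 3.97 on ACR (log2 0.82, adjusted p = 0.0965). The mice of the strains overlapped on both diets for both sestrins.

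Ak1, an adenylate kinase that balances adenine nucleotides, stood at 0.211, 0.679 and 0.167 CPM in LiK normal mice and 0.505, 0.200 and 0 in LiK ACR mice. It was at 2.52, 2.04 and 2.23 CPM in LiKM normal mice and 1.12, 2.64 and 2.32 in LiKM ACR mice. The strains did not overlap, and the LiK levels rest on few counts. The fitted difference was 5.93-fold on the normal diet and 8.48-fold on ACR, a description for the same reason as for Psrc1. Gdf15, a secreted stress cytokine, stood at 2.89, 10.1 and 3.68 CPM in LiK and 10.9, 12.7 and 45.6 in LiKM on the normal diet, 4.03-fold higher (adjusted p = 0.0479). The lowest LiKM mouse barely passed the highest LiK mouse, and LiKM normal 3 stood far above the rest. On ACR Gdf15 stood at 7.64, 16.8 and 13.4 CPM in LiK and 40.9, 37.0 and 20.2 in LiKM, which did not overlap, with a log2 difference of 1.37 (adjusted p = 0.175). With the replicate block within LiKM, set at the fitted level of replicate 1, the log2 value on the normal diet was 1.62. That value does not compare whole groups.

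Tigar, Dcxr and Abhd4 did not pass the threshold on either diet. Tigar, a phosphatase that slows glycolysis and whose exons overlap an antisense gene, had log2 differences of -0.17 (95% interval -0.69 to 0.36) on the normal diet and 0.10 (95% interval -0.42 to 0.63) on ACR. Dcxr, a reductase of dicarbonyls and xylulose, had -0.17 (95% interval -0.46 to 0.12) and 0.17 (95% interval -0.12 to 0.46). Abhd4, a lipase of N-acyl phospholipids, had 0.21 (95% interval -0.15 to 0.56) and 0.07 (95% interval -0.28 to 0.42).

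Some calls were lost when a single library was left out, which need not mean a changed estimate. Without LiK ACR 2, Bax on ACR had a log2 difference of 0.715, against 0.716 with all libraries. Over all genes, calls in these fits ran from 1658 to 3384 on the normal diet and from 312 to 1695 on ACR. For the normal diet the count of members that rose ran from 9 to 12 as each library was left out in turn, and Zmat3, Ak1 and Gdf15 each lost their call without LiK normal 1 or LiK normal 3 (adjusted p from 0.0559 to 0.144). Zmat3 also lost it without LiK normal 2 or LiKM normal 1, and without LiKM normal 3 Gdf15 had a log2 difference of 1.03 (adjusted p = 0.208). In all, Gdf15 lost its call in 16 of 24 alternative settings. On ACR the count ran from 7 without LiK ACR 2 to 16, with 10 members without LiK ACR 1 or LiKM ACR 2. The calls lost without LiK ACR 2 were those of Bax, Fas, Apaf1, Trp53inp1, Plk2, Ckap2, Zmat3 and Ak1 (adjusted p from 0.0577 to 0.0986). Without LiK ACR 1, Bax, Fas, Aen, Trp53inp1 and Zmat3 lost theirs, without LiK ACR 3, Fas, Plk2 and Ckap2, without LiKM ACR 2, Bax, Fas, Plk2, Zmat3 and Ak1, and without LiKM ACR 3, Bax, Fas and Plk2 (adjusted p from 0.0532 to 0.1). Under all 24 alternative settings Apaf1 and Phlda3 kept their call on the normal diet, and Eda2r and Phlda3 on ACR.

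The ACR diet did not move any of the 30 past the threshold in either strain. In LiK 0 of the 30 were called by edgeR, where 0.195% of all tested genes were (0.13% higher and 0.0648% lower, 27 genes in all), and DESeq2 called 0 as well. At an unadjusted p under 0.05 edgeR gave 1 of the 30 in LiK, Ckap2, and 14.1% of all genes, while DESeq2 gave 3 of the 30 and 14.2% of the same genes. Ckap2 was lower on ACR in LiK, at 0.433, 0.333 and 0.137 CPM against 0.845, 1.02 and 2.18, with no overlap (log2 -2.11, 95% interval -3.58 to -0.64, adjusted p = 0.204). Those ACR values rest on 6, 5 and 2 counts and also enter its strain difference on ACR. The median log2 difference of the 30 was -0.00 in LiK, with 15 above 0 and 15 below. The LiK mice on ACR lay all above those on the normal diet for Btg2, Ercc5 and Abhd4 and all below for Ckap2 and Dcxr. These are 3 and 2 of 30, where the shares over all tested genes were 13.4% and 14.6%.

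In LiKM 0 of the 30 were called by edgeR for the diet, as 0% of all tested genes were, and DESeq2 called 0 of the 30. At an unadjusted p under 0.05 edgeR gave Fas and Trp53inp1, 2 of the 30, and 7.24% of all genes, and DESeq2 gave 2 of the 30 and 7.07% of the same genes. The median log2 difference of the 30 was 0.13, with 23 above 0. Trp53inp1 stood at 108, 119 and 79.0 CPM in LiKM normal mice and at 134, 297 and 131 in LiKM ACR mice, and it was the 1 gene of the 30 whose LiKM mice did not overlap between diets, where 3.94% of all genes were higher and 6.7% lower without overlap (log2 0.87, 95% interval 0.22 to 1.53, adjusted p = 0.51). Fas stood at 10.9 ± 2.87 and 15.1 ± 1.23 CPM (log2 0.47, adjusted p = 0.669).

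**Figure D4:**
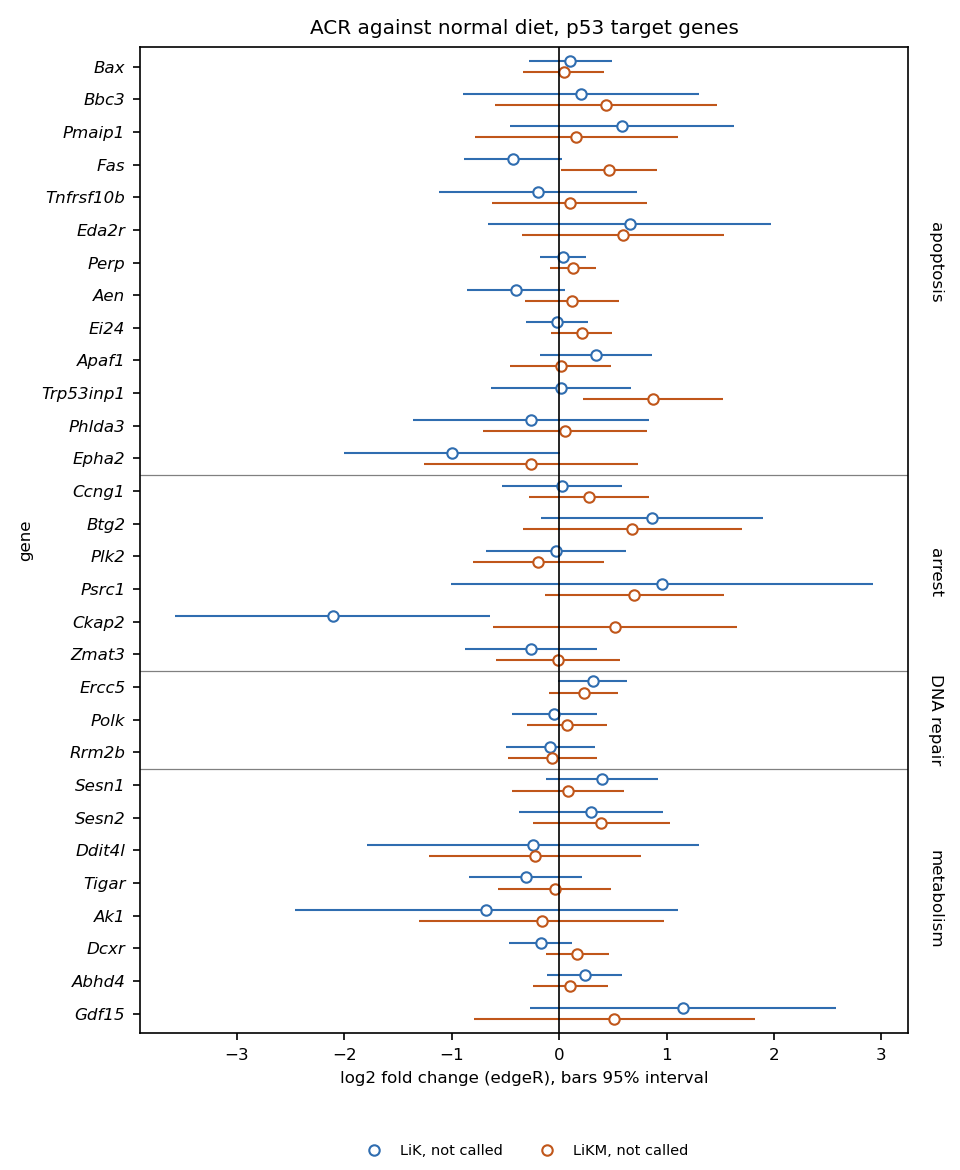
Log2 fold change of the ACR diet against the normal diet for each of the 30 genes (rows, by role) in LiK (blue) and in LiKM (orange), with the 95% interval of the edgeR fit as bars. All points are open because none of the 30 passed an adjusted p of 0.05, and Ckap2 in LiK lies lowest at -2.11.

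The strain difference on ACR was not shown to differ from that on the normal diet for any of the 30. The difference of the diet effects between strains, tested as an interaction, called 0 of the 30 with edgeR, where 0.0072% of all tested genes were called (1 gene), and 0 with DESeq2. At an unadjusted p under 0.05 edgeR gave Fas and Ckap2, and 11.5% of all genes, and DESeq2 gave 3 of the 30 and 11.5% of the same genes. The interaction was 0.90 for Fas (adjusted p = 0.296), 2.63 for Ckap2 (adjusted p = 0.294), 0.86 for Trp53inp1 (adjusted p = 0.469), 0.52 for Aen (adjusted p = 0.519) and -0.64 for Gdf15 (adjusted p = 0.809). The strain comparisons share no mouse with each other, but each shares mice with both diet comparisons.

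The mice of 1 group did not rank alike for all targets. On the normal diet LiKM normal 1 was the highest of its group for 14 of the 30, among them Tnfrsf10b, Eda2r, Phlda3, Psrc1, Zmat3, Ccng1 and Aen, and it also had the highest Cdkn1a, at 86.6 CPM against 22.9 and 15.1. LiKM normal 3 was the highest for 12, among them Bax, Bbc3, Plk2, Btg2, Ddit4l and Gdf15, although it had the lowest Cdkn1a. On ACR LiKM ACR 1 was the lowest of its group for 24 of the 30 and the highest for Aen, Epha2, Tigar and Gdf15. LiKM ACR 3 was the highest for 15 of the 30 and LiKM ACR 2 for 11. In LiK the highest value fell to the 3 mice on the normal diet for 10, 12 and 8 genes and to those on ACR for 13, 5 and 12.

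Per kilobase of exon, which allows levels of different genes to be compared, Perp, Dcxr and Ei24, which passed the test on no diet, were the most abundant of the 30 in LiK on the normal diet. Perp stood at 44.4 CPM per kb in LiK on the normal diet and 38.1 in LiKM, Dcxr at 41.1 and 36.5, and Ei24 at 33.0 and 28.9. The least abundant in LiK on the normal diet were Psrc1 at 0.0251 CPM per kb, Eda2r at 0.108, Ak1 at 0.136 and Tnfrsf10b at 0.181. Tnfrsf10b and Eda2r rose on both diets, and precision on the LiK levels of all 4 is limited by the few counts behind them.

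Among other genes of the pathway, calls went in both directions. Of 44 further p53 targets, a list that includes Cdkn1a, 40 were tested, and 9 rose and 3 fell on the normal diet (median log2 difference 0.22), while 11 rose and 1 fell on ACR (median 0.28). The risen were 22.5% and 27.5% of the 40, where 13.2% and 5.55% of all tested genes rose. Over all tested genes 8.61% and 4.24% fell, so the falls in the list did not exceed that share. Which of the 40 passed the filter only through LiKM was not counted. Prkab2, a regulatory subunit of the energy sensor AMPK, stood at 2.01 ± 0.343 CPM in LiK and 5.67 ± 0.181 in LiKM on the normal diet, 2.82-fold higher (adjusted p = 0.00109), while on ACR it did not pass the threshold (log2 0.68, adjusted p = 0.0595). Trp53i11 stood at 3.95 ± 0.877 and 10.6 ± 2.61 CPM on the normal diet (adjusted p = 0.00271) and at 8.06 ± 1.29 and 8.48 ± 1.93 on ACR (log2 0.07, adjusted p = 0.871). Pank1, the first enzyme of coenzyme A synthesis, fell on both diets, from 285 ± 19.9 CPM in LiK to 156 ± 24.1 in LiKM on the normal diet (adjusted p = 0.00173) and from 322 ± 24.1 to 159 ± 21.3 on ACR (adjusted p = 0.00306). Cpt1c is a carnitine palmitoyltransferase best known from neurons. Its fitted difference was 7.12-fold on the normal diet and 7.49-fold on ACR, from 0.419 ± 0.202 to 3.17 ± 1.95 CPM. No LiK mouse exceeded 0.453 CPM on the normal diet or 0.649 on ACR. These values rest on few LiK counts and are a description, as for Psrc1 and Ak1.

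Of 15 genes that control p53 itself, 11 were tested, and 1 rose on the normal diet, Trp53, and 2 rose on ACR, Mdm2 and Mdm4. These are 9.09% and 18.2%, where 13.2% and 5.55% of all tested genes rose. Mdm4, a partner of Mdm2 that blocks p53 activity, stood at 59.4 ± 1.32 CPM in LiK and 79.2 ± 10 in LiKM on ACR (log2 0.41, adjusted p = 0.0272), a call lost in 10 of 24 alternative settings. None of the genes of either list was called for the diet in LiK or LiKM, where 0.195% and 0% of all tested genes were.

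Markers of some other cell types also rose in LiKM. Of 14 biliary and progenitor markers, with Spp1 and Cd24a among the most abundant, 13 were tested, and 13 rose on the normal diet (median log2 difference 4.40) and 12 on ACR (median 2.28). Of all tested genes 13.2% and 5.55% rose on these diets. The summed level of the biliary list was 57.0 to 72.0 CPM in LiK and 667 to 1118 in LiKM on the normal diet, and 54.8 to 213 in LiK and 368 to 572 in LiKM on ACR. Of 12 T and NK cell markers 8 were tested, and 7 rose on the normal diet and 3 on ACR. That list summed to 1.09 to 6.52 CPM in LiK and 5.88 to 20.9 in LiKM. With sums this low in LiK, some of its markers may have passed the filter only through LiKM. Their counts are therefore a description. Of 15 hepatocyte markers 4 fell without ACR and 0 with it, where 8.61% and 4.24% of all tested genes fell. The part of these cell types in the strain difference of the p53 targets was not tested.

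**Figure D5:**
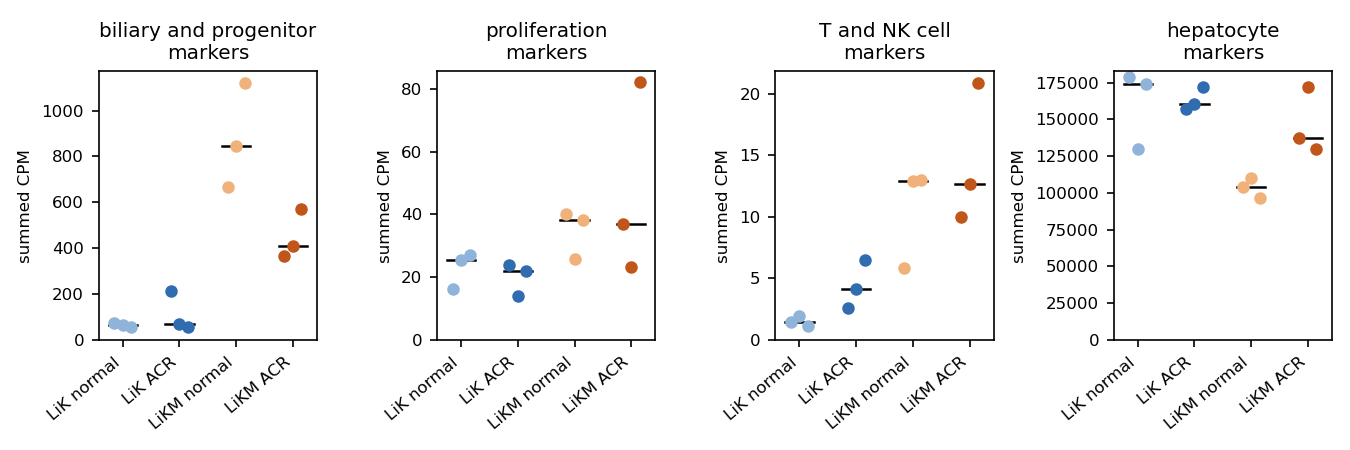
Summed CPM of 4 marker lists in each mouse (points), by group, with the group median as a line and each panel on its own linear axis from 0. The biliary and progenitor sum is at most 213 CPM in LiK mice and at least 368 in LiKM mice, and the hepatocyte sum is lowest in LiKM mice on the normal diet.

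On ACR the biliary sums of LiKM mice lay below those of the normal diet without overlap, with log2 differences below 0 for all 13 tested markers (median -1.32), none of which passed the threshold. The sums of macrophage and of stellate markers overlapped between the strains on the normal diet, with sums of 160 to 327 and 230 to 554 CPM in LiK and 204 to 407 and 365 to 763 in LiKM. Of 11 markers each, 2 macrophage and 4 stellate markers rose on the normal diet (18.2% and 36.4%), and 1 of each on ACR (9.09%). Over all tested genes 13.2% and 5.55% rose on these diets. Of 10 endothelial markers 1 rose on the normal diet and 0 on ACR, with median log2 differences of 0.29 and -0.05. On ACR both sums were higher in every LiKM mouse than in any LiK mouse, at 239 to 480 against 486 to 532 CPM for macrophages and 278 to 414 against 485 to 681 for stellate cells and fibroblasts.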

How the data were processed

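The deposited table holds expected counts per gene symbol and library, and 18.9% of its values above 0 are not whole (tolerance 1e-09). The authors' processing used featureCounts 2.0.0 and mm10, per the submitters' processing notes, and libraries came from a stranded mRNA kit, per the labels' protocols. For the aligner, annotation and strand setting nothing is stated (not given in the sources used here), so reads of overlapping genes may not be separated. Bax shares 192 exon bases with a gene on its own strand, and Ei24, Rrm2b and Tigar share 324, 734 and 122 with antisense genes.

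Counts were rounded, filtered with filterByExpr (13880 of 24421 genes kept) and scaled by TMM. The test was edgeR 4.0.16's quasi-likelihood test (R 4.3.3, robust) on 12 libraries in 4 groups, with Benjamini-Hochberg adjustment over all genes and a threshold of 0.05. The common biological coefficient of variation was 0.203. DESeq2 1.42.0 was an alternative, and the code was tested on simulated data. Totals of 10124813 to 18647156 counts leave genes with few counts imprecise. Groups came from the sample titles, which number separate mice, and libraries of a group differed by more than sampling noise (chi-square over its degrees of freedom 15.8 to 68.1).

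The 30 members, the marker lists and the tests were chosen with earlier results of these data known. All members are named, and from the list of other p53 targets up to 3 of smallest p per comparison. Whether replicate numbers pair mice was checked across genes by correlating deviations from the group means of mice with 1 number. The correlation was 0.366, 0.217 and 0.485 between LiKM on the normal diet and LiKM on ACR, and -0.101 to 0.0768 between other groups. For unlike numbers in LiKM it ran from -0.384 to 0.0735. The deviations of the 3 mice of a group sum to 0, so these values are not independent. The labels do not say that mice were paired, and the block within LiKM was an alternative only. Promoters are RefSeq sequences of GRCm38.p6, gene lengths come from GENCODE, and the decamer is palindromic, so both strands were read at once. Alternatives covered scaling, filtering, rounding, the tool, the samples fitted, the replicate block, the identifier prefix and leaving out libraries. A few items are not reported here.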

Additional observations from a re-analysis of the deposited data

How the results depend on the processing

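No member past the threshold changed direction under any alternative, and 77 calls were lost and 22 gained over all members, comparisons and settings. Members that rose on the normal diet numbered 12, against 19 with library size alone, 13 with DESeq2, 10 with the prefix as a term, 3 with KM libraries only (LiK normal then holds 1 mouse) and 9 to 12 as each library was left out. On ACR they numbered 15, against 16 with library size alone, 16 with DESeq2, 13 with the prefix, 9 with KM libraries only, 4 without the 3 LiKM libraries that differ in clock genes, and 7 to 16 as each library was left out. Scaling by library size alone moved the median of all genes on the normal diet to 0.405 and the share of higher calls from 60.6% to 97.6%. Aen gained a call on the normal diet with library size alone (adjusted p = 0.0109), and Ccng1 gained one on ACR with DESeq2 (adjusted p = 0.0366).

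Over all genes, calls on the normal diet (3031) became 4831 with library size alone, 1038 with KM libraries only and 1658 to 3384 as each library was left out. On ACR (1359) they became 2072 with DESeq2, 535 with KM libraries only, 555 without the 3 libraries and 312 to 1695. For diet in LiK (27) they became 390 with DESeq2, 812 with only the groups compared, 701 with the replicate block within LiKM, 16 with the prefix, 0 with KM libraries only, 624 without the 3 libraries and 0 to 108. For diet in LiKM (0) they became 71 with DESeq2, 9 with the replicate block, 1 without the 3 libraries and 0 to 5. For the interaction (1) they became 16 with library size alone, 2 with no filter, 157 with DESeq2, 2 with the replicate block over all groups and 260 with the block within LiKM, 0 with the prefix, 0 with KM libraries only, 15 without the 3 libraries and 0 to 20. The causes were not tested.

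With the replicate block within LiKM, 0 members were called for diet in LiKM or the interaction. The strain comparisons of that fit set LiKM at the fitted level of a reference replicate, as stated for Bax, and do not compare whole groups. In them 12 members passed as higher and Perp as lower on the normal diet (log2 -0.35), and 14 as higher on ACR. These strain values also enter the counts over the alternative settings. Depth limits Psrc1, Ak1, Ckap2, Ddit4l, Pmaip1, Eda2r, Tnfrsf10b and Phlda3, whose LiK levels rest on few counts. With 3 mice per group, smaller differences can be missed.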
